A study of Mus musculus with 6 samples.

Results

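The Hox genes encode homeodomain transcription factors and lie in clusters a, b, c and d, on mouse chromosomes 6, 11, 15 and 2 in that order. They were taken here as the genes whose symbol is Hox, a cluster letter and a paralog number from 1 to 13. In all, 37 such genes had a probe set of their own on the Affymetrix Mouse Gene 1.0 ST array, 1 set each, among 35556 sets. Hoxb8 was read only by a set shared with Hoxb7. The 37 genes comprised 10 Hoxa, 9 Hoxb, 9 Hoxc and 9 Hoxd genes. The means of Hoxc4 and Hoxc11 over the 6 arrays were below the filter on low signal, so 35 Hox genes entered the test, among 19506 sets.

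The arrays measured total RNA from laser-microdissected colon tumors of mice aged 3 weeks. The authors give C57BL/6J as the strain of the Tgfbr2flox/flox parent line, which was crossed with Apcflox/flox and CDX2P-G19Cre mice. The 3 double knockout tumors came from CDX2P-G19Cre;Apcflox/flox;Tgfbr2flox/flox mice, which lose both the tumor suppressor Apc and the type II receptor of transforming growth factor-β. The 3 Apc knockout tumors came from CDX2P-G19Cre;Apcflox/flox mice, so both genotypes carried the Cre transgene and the Apc deletion and differed in Tgfbr2. Cre was driven by a fragment of the human CDX2 promoter and became active in scattered cells of the colon epithelium. Each array was 1 tumor, and the sample titles and the paper do not say whether each tumor came from a different mouse. Signals were log2 values after robust multichip analysis (RMA), in which 1 unit is a doubling, and they were compared between tumors within a probe set and never between genes.

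Along the gut, Hox genes are expressed in nested domains in which gene order in the cluster follows position on the body axis. Genes of low paralog number act in anterior regions, and those of the highest number, paralog group 13, act at the posterior end, where they take part in forming the hindgut and the tail, limb and genital structures. Caudal proteins (Cdx1, Cdx2 and Cdx4) and retinoic acid are known regulators of the clusters, Polycomb and trithorax proteins keep them silent or active, and proteins of the TALE class (Pbx, Meis and Pknox) bind DNA with Hox proteins.

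Promoter sequences from RefSeq (GRCm38.p6) are shown for a pair of paralog 13 genes whose signal stood high in 1 tumor. They are also shown for Hoxb4, whose signal stood low in that tumor, and for Hoxb8. The set that Hoxb8 shares with Hoxb7 stood low there, but so did the set of Hoxb7 alone. The level of Hoxb8 itself is therefore not known. Each sequence runs 5′ to 3′ over 300 bases around the start of the gene. Capitals mark TTTATNG, a core motif of caudal proteins, searched on both strands with no other motif overlapping it. The windows are chr6:52260831-52261130 on the minus strand for Hoxa13, and, on the plus strand, chr2:74667975-74668274 for Hoxd13, chr11:96318017-96318316 for Hoxb4 and chr11:96281655-96281954 for Hoxb8.
Hoxa13: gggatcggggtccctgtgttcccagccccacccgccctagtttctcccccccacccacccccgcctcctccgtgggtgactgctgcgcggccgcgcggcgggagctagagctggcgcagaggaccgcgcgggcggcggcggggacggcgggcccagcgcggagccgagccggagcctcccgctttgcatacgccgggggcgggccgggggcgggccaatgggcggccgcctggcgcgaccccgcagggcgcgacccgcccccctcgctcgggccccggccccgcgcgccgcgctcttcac
Hoxd13: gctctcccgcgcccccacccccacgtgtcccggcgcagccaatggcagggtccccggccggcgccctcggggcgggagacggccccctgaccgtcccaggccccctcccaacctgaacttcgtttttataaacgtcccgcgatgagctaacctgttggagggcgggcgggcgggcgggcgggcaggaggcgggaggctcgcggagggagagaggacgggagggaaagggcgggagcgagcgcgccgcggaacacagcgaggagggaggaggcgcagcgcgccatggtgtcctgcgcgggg
Hoxb4: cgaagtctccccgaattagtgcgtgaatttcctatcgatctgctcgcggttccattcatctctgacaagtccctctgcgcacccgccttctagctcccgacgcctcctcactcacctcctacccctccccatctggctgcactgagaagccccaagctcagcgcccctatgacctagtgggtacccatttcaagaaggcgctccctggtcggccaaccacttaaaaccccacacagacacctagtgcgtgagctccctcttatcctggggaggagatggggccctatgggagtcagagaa
Hoxb8: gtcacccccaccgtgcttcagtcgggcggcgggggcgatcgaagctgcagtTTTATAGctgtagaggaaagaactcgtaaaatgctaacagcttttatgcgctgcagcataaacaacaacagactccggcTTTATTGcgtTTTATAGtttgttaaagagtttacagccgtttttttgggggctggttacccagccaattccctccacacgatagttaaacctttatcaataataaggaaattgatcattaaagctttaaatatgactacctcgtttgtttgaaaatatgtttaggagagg

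The Hoxa13 promoter held 45 CpG sites and 81.0% G or C, and that of Hoxd13 held 37 and 74.3%. The Hoxb4 promoter held 14 CpG sites and 58.0% G or C, and that of Hoxb8 held 13 and 42.3%. Hoxd10, Hoxd11 and Hoxd12 were also highest in double knockout tumor 2, and their windows varied. That of Hoxd10 held 22 sites and 62.7%, and that of Hoxd12 held 13 and 55.0%. The Hoxd11 windows held 4 sites and 45.7%, and 25 sites and 62.0%. The medians were 14.5 sites and 57.7% over the 24 promoters of the 22 Hox genes that matched the RefSeq table, against 7 sites and 52.7% over 32851 promoters of all genes. The caudal motif stood 3 times in the Hoxb8 window and was also in that of Hoxd4, so 2 of 24 Hox promoters held it, against 10.9% of all promoters. A match describes letters in the window only.

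Double knockout tumor 2 stood apart from the other 5 tumors across the array. Its correlations with them over the tested sets were 0.904 to 0.937, whereas other tumors reached 0.982 with one another. It lay more than 1 log2 unit above each of the other 5 in 563 sets and below each in 401, whereas no other tumor did so in more than 23 sets above or 17 below. Its marker genes differed too. Smooth muscle markers were highest in it for 10 of 12 genes, markers of differentiated colonocytes for 8 of 12, and it was the lowest for 11 of 12 Wnt target and crypt genes. Over all sets tested, it was the highest of the 6 tumors in 28.5% and the lowest in 28.3%. Tgfbr2 read 10.98, 10.35 and 10.47 in the double knockout tumors, against 11.35, 11.37 and 11.09 in the Apc knockout tumors (log2 fold change -0.67, limma adjusted p = 0.821), which did not overlap. Sets of this array read exons along the whole gene, so this value says little of the deletion. Genotype differences given for single Hox genes stand with and without it where it moved them.

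No Hox gene differed between the genotypes at an adjusted p under 0.05 in limma's moderated test. The count was 0 of 35 Hox genes, beside 0% of all 19506 sets. At an unadjusted p under 0.05, 0 Hox genes were higher, beside 1.78% of all sets, and 0 were lower, beside 3.82%. The methods' t-test put 1 Hox gene, Hoxb1, past that unadjusted threshold, beside 2.1% of all sets called higher by that test, and 0 after Benjamini-Hochberg adjustment. In 1 Hox gene the 3 double knockout tumors all lay above the 3 Apc knockout tumors (5.25% of all sets), and in 0 they all lay below (6.94% of all sets). The double knockout mean was the higher for 16 Hox genes and the lower for 19, with a median log2 fold change of -0.06, against 0.01 over all sets tested. With 3 tumors in each group the smallest 2-sided p an exact permutation test can give is 0.1.

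**Figure D1:**
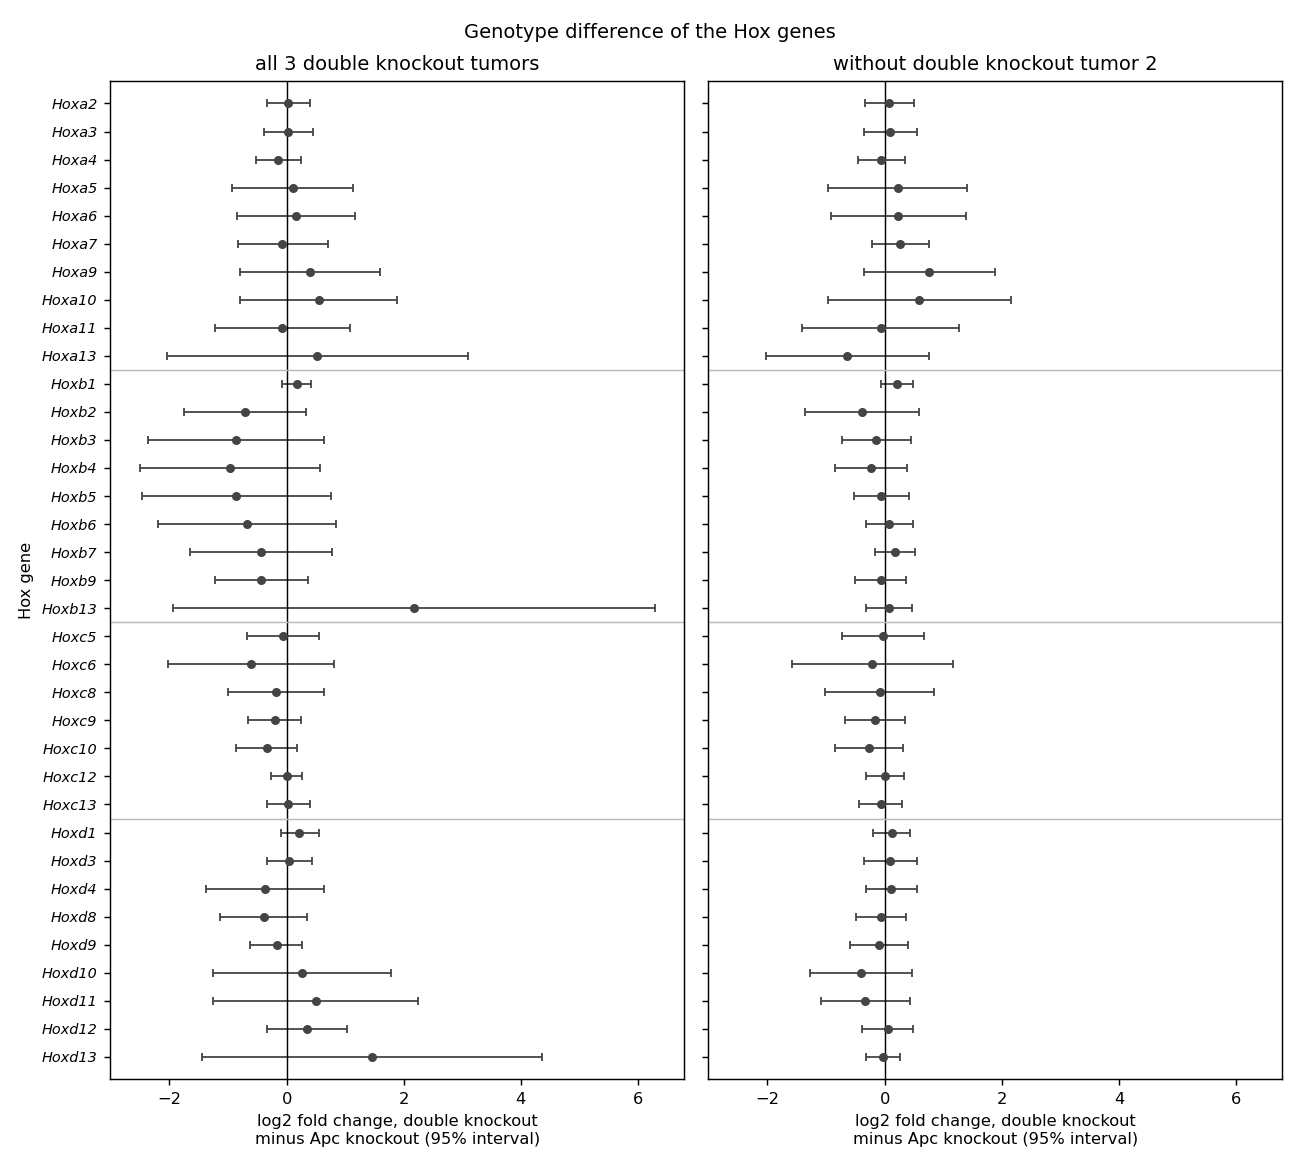
Log2 fold change (double knockout minus Apc knockout, x axis) of the 35 Hox genes tested, by cluster, with 95% confidence intervals from limma, for all tumors on the left and without double knockout tumor 2 on the right. Every interval crosses 0, and that of Hoxb13 runs from -1.94 to 6.29 on the left, against -0.32 to 0.47 on the right.

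The Hox genes instead varied from tumor to tumor. Their median SD over the 6 tumors was 0.56 log2 units, against 0.20 for all sets tested, and without tumor 2 it was 0.24, against 0.16. In tumor 2, 5 Hox genes lay more than 1 log2 unit above each of the other 5 tumors, beside 2.89% of all sets. These were Hoxa13, Hoxb13, Hoxd10, Hoxd11 and Hoxd13, all from the posterior end of a cluster. In the same tumor 6 Hox genes lay more than 1 unit below each other tumor, beside 2.06% of all sets, and these were Hoxb3, Hoxb4, Hoxb5, Hoxb6, Hoxb7 and Hoxd4, from the anterior and central parts. Apc knockout tumor 2 lay below all others by that margin in Hoxa10, beside 0.0256% of all sets. Apc knockout tumor 3 lay above all others in Hoxc6, beside 0.0769% of all sets.

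**Figure D2:**
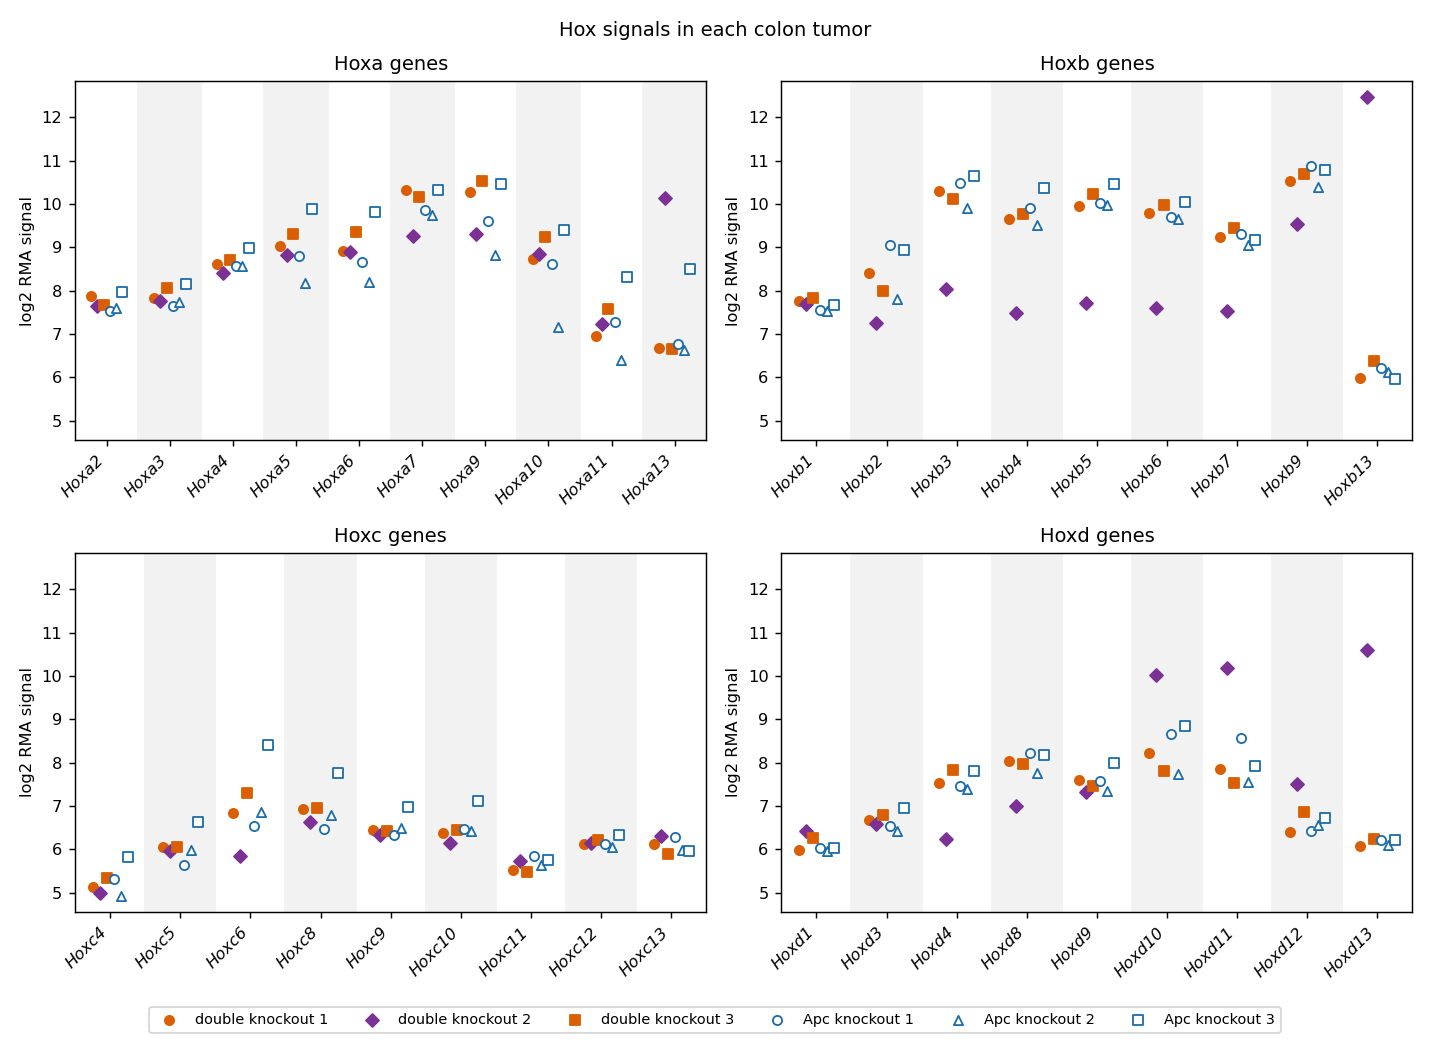
Log2 RMA signal (y axis) of the 37 Hox genes in each tumor, 1 panel per cluster with genes by paralog number on the x axis, filled symbols for double knockout tumors and open symbols for Apc knockout tumors. Points are to be compared within a gene, and the purple diamond, double knockout tumor 2, is far above the rest at Hoxb13, Hoxd13 and Hoxa13 and far below them at Hoxb3 to Hoxb7.

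In paralog group 13, tumor 2 held most of the spread of Hoxb13 and Hoxd13. Without it their ranges were 0.41 and 0.15 units, whereas that of Hoxa13 was still 1.88. The median SD of the 4 genes of the group was 1.63 over the 6 tumors. Without tumor 2 it was 0.16, the same as for all sets, though this median does not show the spread left in Hoxa13. Hoxb13, best known from the prostate and the distal hindgut, read 5.98, 12.46 and 6.37 in the double knockout tumors, against 6.22, 6.12 and 5.96 in the Apc knockout tumors. Tumor 2 was the only one with a raised signal, 6.09 units above the next, and the other 5 lay between 5.96 and 6.37. Those 5 values lay near the filter on low signal, 5.88, so the difference within the genotype is given on the log2 scale alone, at 6.29 units above the mean of the other double knockout tumors. The log2 fold change between genotypes was 2.17 (SE 1.69, 95% interval -1.94 to 6.29, limma adjusted p = 0.832), and without tumor 2 it was 0.07 (SE 0.16).

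Hoxd13, which shapes digits and the genital and anal region, read 6.08, 10.59 and 6.23 in the double knockout tumors, against 6.21, 6.10 and 6.21 in the Apc knockout tumors. The other 5 tumors lay within 0.15 units of one another, close to the filter as well, and tumor 2 was 4.44 units above the mean of the other double knockout tumors. Its log2 fold change was 1.46 (SE 1.20, 95% interval -1.45 to 4.36), and without tumor 2 it was -0.02 (SE 0.11, 95% interval -0.31 to 0.26).

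Hoxa13, which acts with Hoxd13 in the limb and hindgut, read 6.68, 10.14 and 6.65 in the double knockout tumors, against 6.78, 6.62 and 8.50 in the Apc knockout tumors. Here a second tumor, Apc knockout tumor 3, was also raised, by less than tumor 2, and the genotypes overlapped. The log2 fold change was 0.52 (SE 1.05), and leaving out tumor 2 turned it to -0.64 (SE 0.56). Hoxc13, a gene of hair and nail, read 6.12, 6.30 and 5.90 in the double knockout tumors, against 6.28, 5.98 and 5.96 in the Apc knockout tumors. Tumor 2 was nominally the highest there too, but by 0.02 units, and the tumors were not separated.

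The genes beside these ends of the clusters moved with tumor 2 in places. Hottip, a long noncoding RNA transcribed from the tip of the Hoxa cluster next to Hoxa13, read 5.74, 8.24 and 5.72 in the double knockout tumors, against 5.63, 5.73 and 6.45 in the Apc knockout tumors. As for Hoxa13, tumor 2 was the highest and Apc knockout tumor 3 the next, and the other 4 tumors lay close together. Ttll6, a tubulin-modifying enzyme and the nearest protein-coding neighbor of Hoxb13 outside the cluster, read 6.43, 10.35 and 6.20 in the double knockout tumors, against 6.33, 6.33 and 6.18 in the Apc knockout tumors. Only tumor 2 was raised. Evx2, a homeobox gene adjoining Hoxd13, read 7.94, 8.66 and 7.91 in the double knockout tumors, against 7.94, 7.70 and 7.91 in the Apc knockout tumors, and tumor 2 was again the highest, by less than 1 unit. Evx1, a related homeobox gene beyond Hottip, was lowest in tumor 2, at 8.95, 8.22 and 9.29 in the double knockout tumors, against 9.85, 8.74 and 9.83 in the Apc knockout tumors.

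The rest of the posterior Hoxd genes were also high in tumor 2. Hoxd11, a limb and kidney gene, read 7.84, 10.17 and 7.52 in the double knockout tumors, against 8.57, 7.54 and 7.92 in the Apc knockout tumors. Tumor 2 lay 1.61 units above the next tumor, and the remaining 5 overlapped. The log2 fold change was 0.50 (SE 0.72), and without tumor 2 it was -0.33 (SE 0.31). Hoxd10 read 10.03 in tumor 2, against 7.73 to 8.84 in the other tumors, and Hoxd12 read 7.51, against 6.39 to 6.85. All 4 genes from Hoxd10 to Hoxd13 were highest in tumor 2, with a median of 2.26 units above the other double knockout tumors.

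**Figure D3:**
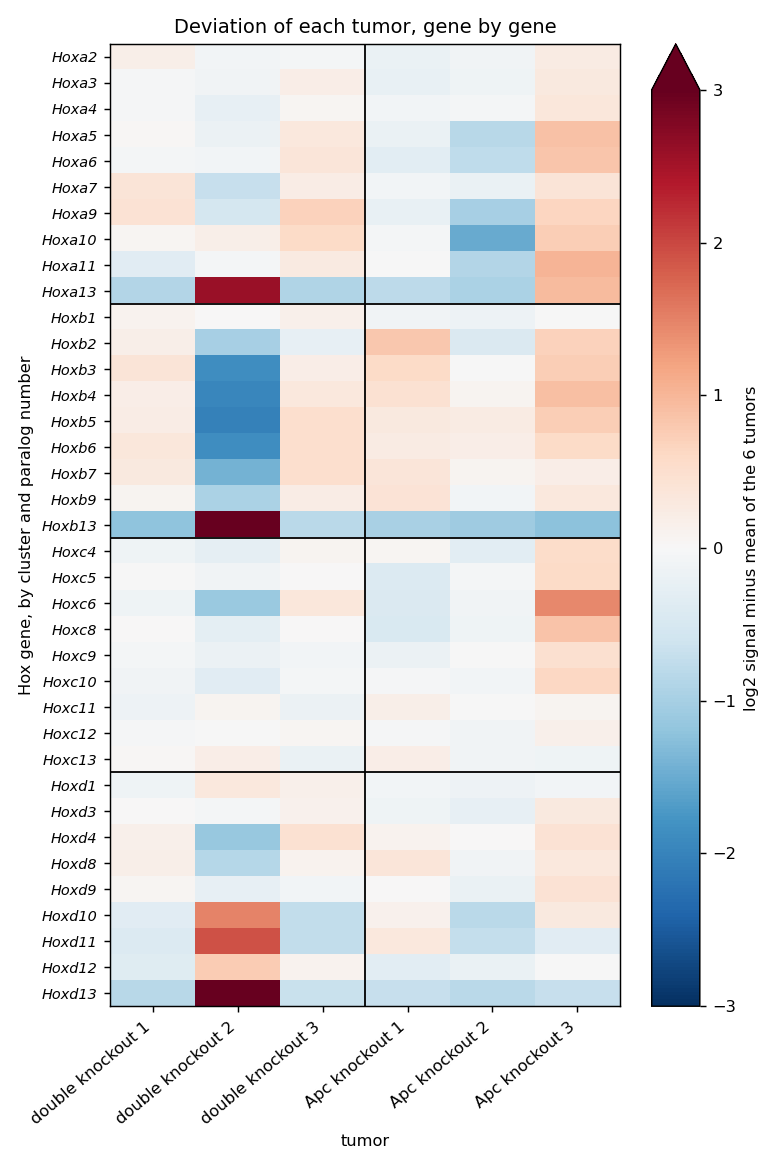
Heat map of each tumor's log2 signal minus the mean of the 6 tumors (color, capped at -3 and 3) for the 37 Hox genes (y axis, by cluster and paralog number) and the tumors (x axis, double knockout on the left). In the column of double knockout tumor 2, Hoxb2 to Hoxb9, Hoxd4 and Hoxd8 are blue, and Hoxb13 and Hoxd10 to Hoxd13 are red. The most anterior genes of these clusters, Hoxb1 and Hoxd1, are not blue there. Apc knockout tumor 3 is the highest of the 6 in 20 of the 35 tested genes, beside 4692 of all 19506 sets.

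The run of Hoxb genes from Hoxb2 to Hoxb9 went the other way in tumor 2. All 7 of these genes with a set of their own were lowest in it, with a median of -2.17 units relative to the other double knockout tumors. Hoxb4, known for its action in hindbrain patterning and blood stem cells, read 9.65, 7.48 and 9.76 in the double knockout tumors, against 9.91, 9.52 and 10.36 in the Apc knockout tumors. Tumor 2 lay 2.04 units below the next tumor, and the other 5 overlapped. Its log2 fold change was -0.97 (SE 0.63, 95% interval -2.51 to 0.57, limma adjusted p = 0.824), and without tumor 2 it was -0.23 (SE 0.25).

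Hoxb5, which acts in enteric neural crest and lung, read 7.71 in tumor 2, against 9.95 to 10.47 in the other tumors, a 5.24-fold difference from the other double knockout tumors. Hoxb3 read 8.04, against 9.90 to 10.65, Hoxb6 read 7.60, against 9.65 to 10.04, and Hoxb7 read 7.53, against 9.05 to 9.45. The set shared by Hoxb8 and Hoxb7 read 9.07, 7.04 and 9.31 in the double knockout tumors, against 9.87, 9.11 and 9.51 in the Apc knockout tumors. The difference was smaller at both ends of this run, where Hoxb2 read 7.25 in tumor 2, against 7.80 to 9.05, and Hoxb9 read 9.53, against 10.39 to 10.88. The median log2 fold change of the 9 Hoxb genes was -0.68 over all tumors and -0.06 without tumor 2.

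Mir10a, a microRNA gene next to Hoxb4, was low in tumor 2 as well. Its set read 7.08, 4.30 and 6.71 in the double knockout tumors, against 6.79, 6.80 and 7.14 in the Apc knockout tumors. Tumor 2 was the single low value. The set of Mir196a-1, near Hoxb9, read 9.83, 9.41 and 9.49 in the double knockout tumors, against 8.83, 9.01 and 9.54 in the Apc knockout tumors, and the genotypes overlapped. These sets read RNA of the microRNA locus and cannot tell the precursor from the mature form. The mature sequences (RefSeq, GRCm38.p6), shown because Hox-cluster microRNAs share seeds across clusters, are given with the seed, bases 2 to 8, in capitals.
mmu-miR-10a-5p: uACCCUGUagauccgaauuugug
mmu-miR-10b-5p: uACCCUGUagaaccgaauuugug
mmu-miR-196a-5p: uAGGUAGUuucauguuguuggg
mmu-miR-196b-5p: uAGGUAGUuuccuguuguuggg

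The miR-10 pair, from the Hoxb and Hoxd clusters, shares the seed ACCCUGU, and the miR-196 pair shares AGGUAGU. Mir10b had a mean below the filter and read 4.60, 3.92 and 4.08 in the double knockout tumors, against 4.10, 4.29 and 4.41 in the Apc knockout tumors. Mir196b, in the Hoxa cluster, read 7.13, 7.13 and 6.99 in the double knockout tumors, against 6.45, 6.40 and 7.53 in the Apc knockout tumors. In both, the genotypes overlapped.

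Hoxb1, the most anterior Hoxb gene and a hindbrain regulator, was the gene whose groups did not overlap. It read 7.77, 7.69 and 7.82 in the double knockout tumors, against 7.56, 7.53 and 7.67 in the Apc knockout tumors. The lowest double knockout tumor was above the highest Apc knockout tumor by a small margin, and tumor 2 did not stand out. The log2 fold change was 0.17 (SE 0.10, 95% interval -0.07 to 0.41, limma adjusted p = 0.821, exact permutation p = 0.1), and without tumor 2 it was 0.21 (SE 0.11).

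In the Hoxa cluster, beside Hoxa13, the spread lay largely among the Apc knockout tumors. Apc knockout tumor 2 was the lowest of the 6 in 6 of 10 Hoxa genes, beside 3837 of all 19506 sets tested. Apc knockout tumor 3 was the highest in 8, beside 4692 of all sets. Hoxa10, a gene of the lumbar axis and uterus, read 8.72, 8.84 and 9.24 in the double knockout tumors, against 8.61, 7.15 and 9.41 in the Apc knockout tumors. Apc knockout tumor 2 lay 1.46 units below the next tumor, and the double knockout tumors sat inside the Apc knockout range. The log2 fold change was 0.55 (SE 0.55, 95% interval -0.80 to 1.89), and without Apc knockout tumor 2 it was -0.07.

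Hoxa5, known from lung and midgut development, read 9.04, 8.83 and 9.31 in the double knockout tumors, against 8.80, 8.17 and 9.88 in the Apc knockout tumors. Hoxa9, a gene of blood progenitors and leukemia, read 10.28, 9.31 and 10.52 in the double knockout tumors, against 9.61, 8.83 and 10.47 in the Apc knockout tumors. Hoxa11, a gene of limb and uterus, read 6.95, 7.24 and 7.57 in the double knockout tumors, against 7.27, 6.41 and 8.31 in the Apc knockout tumors. In all these genes Apc knockout tumor 2 was the lowest, and the Apc knockout tumors spread more widely than the double knockout tumors (for Hoxa5, an SD of 0.24 in the double knockout and 0.87 in the Apc knockout tumors, n = 3 each). Hoxa2, Hoxa3 and Hoxa4 varied least, with an SD over the 6 tumors of 0.17, 0.20 and 0.19. Hoxa6 ranged from 8.21 to 9.82, and Hoxa7 from 9.25 in double knockout tumor 2 to 10.32.

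The Hoxc genes had modest differences. Apc knockout tumor 3 was the highest in 6 of the 7 Hoxc genes tested, beside 4692 of all 19506 sets. Hoxc6, a gene of the thoracic axis and mammary gland, read 6.83, 5.85 and 7.30 in the double knockout tumors, against 6.54, 6.85 and 8.41 in the Apc knockout tumors. Apc knockout tumor 3 lay 1.11 units above the next tumor, double knockout tumor 2 was the lowest, and the genotypes overlapped. Hoxc6 had a log2 fold change of -0.61 (SE 0.58). Leaving out double knockout tumor 2 gave -0.21, and leaving out Apc knockout tumor 3 gave -0.04. Hoxc8, which acts in the thoracic skeleton, read 6.92, 6.63 and 6.94 in the double knockout tumors, against 6.46, 6.80 and 7.77 in the Apc knockout tumors. The log2 fold change was -0.18 (SE 0.34) and was -0.08 without double knockout tumor 2, and it changed sign, to 0.20, without Apc knockout tumor 3. The SD over the 6 tumors was 0.33 at most for Hoxc5, Hoxc9, Hoxc10, Hoxc12 and Hoxc13.

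Among the anterior and central Hoxd genes, Hoxd4 and Hoxd8 were low in double knockout tumor 2. Hoxd4, which like Hoxb4 patterns the hindbrain and neck, read 7.52, 6.23 and 7.82 in the double knockout tumors, against 7.47, 7.38 and 7.81 in the Apc knockout tumors. Hoxd8 read 8.03, 7.0 and 7.97 in the double knockout tumors, against 8.23, 7.76 and 8.18 in the Apc knockout tumors. In both, tumor 2 was the lowest and the other 5 tumors overlapped. Hoxd1 ranged from 5.96 to 6.42, Hoxd3 from 6.42 to 6.95 and Hoxd9 from 7.31 to 7.98.

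Grouped by paralog number, the 13 central genes (paralogs 4 to 8) had a median log2 fold change of -0.36, with 11 of 13 means lower in double knockout tumors. Without tumor 2 the median was -0.03 and 7 means were lower. The 15 posterior genes (paralogs 9 to 13) had a median of 0.27, with 9 of 15 means higher. Without tumor 2 the median was -0.07 and 5 means were higher, so the balance turned round. The 7 anterior genes (paralogs 1 to 3) had a median of 0.03 and of 0.10 without tumor 2. No list was tested as a set.

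Some known regulators of the clusters also stood apart in tumor 2, and their part in the Hox values was not tested. Of 15 caudal and retinoid genes with a set, tumor 2 was the highest for 5 and the lowest for 6. Over all sets tested it was the highest in 28.5% and the lowest in 28.3%. The genes given here were chosen after their values were seen. Cdx2, the caudal factor that specifies intestinal epithelium, read 11.18, 8.24 and 10.93 in the double knockout tumors, against 10.89, 10.73 and 10.08 in the Apc knockout tumors. Tumor 2 was 2.81 units below the other double knockout tumors. Cdx1, its relative, read 9.63, 10.64 and 9.49 in the double knockout tumors, against 9.53, 9.43 and 8.79 in the Apc knockout tumors, and tumor 2 was here the highest. Of 13 tested caudal and retinoid genes, 0 passed the unadjusted threshold in either direction, beside 1.78% of all sets higher and 3.82% lower. Rarb, a retinoic acid receptor, read 8.55, 7.19 and 8.56 in the double knockout tumors, against 9.49, 8.26 and 10.38 in the Apc knockout tumors.

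**Figure D4:**
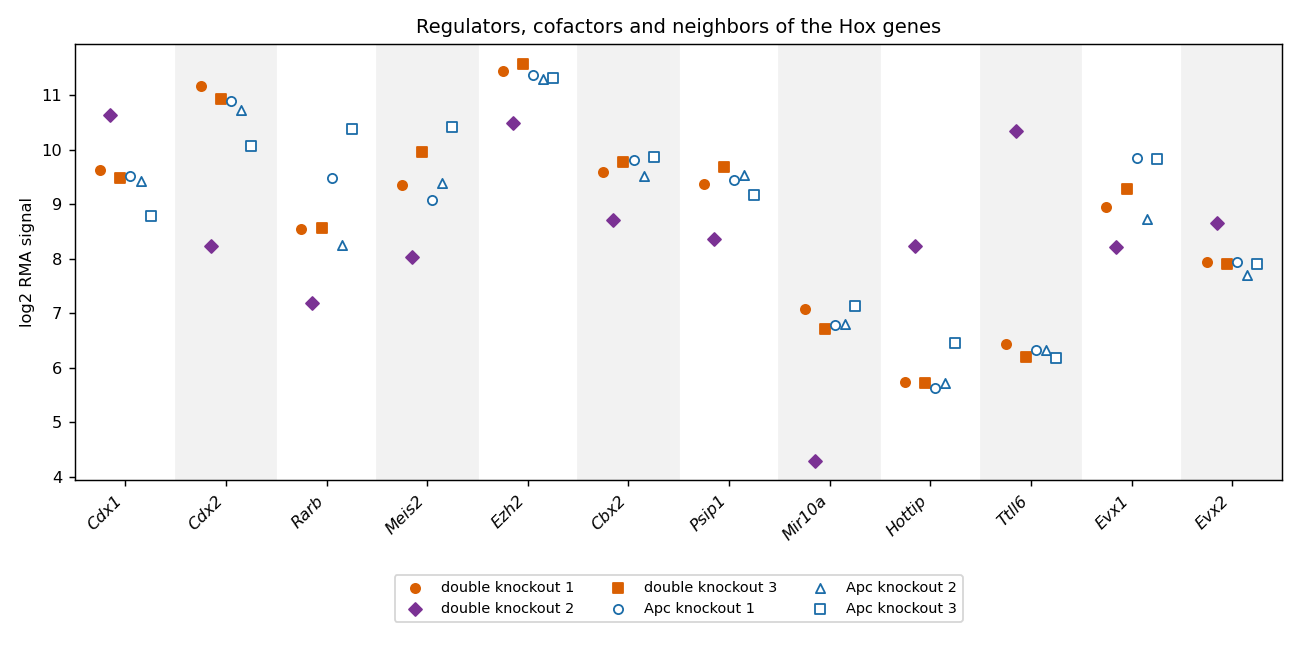
Log2 RMA signal (y axis) in each tumor of 12 regulators, cofactors and neighbors of the Hox genes (x axis), chosen after their values were seen, with filled symbols for double knockout and open symbols for Apc knockout tumors. In double knockout tumor 2, Cdx2 read 8.24 and Mir10a 4.30, below all other tumors, and Ttll6 read 10.35 and Hottip 8.24, above them.

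Of 8 TALE cofactors, 0 passed the unadjusted threshold, beside 1.78% of all sets higher and 3.82% lower. Meis2 read 9.35, 8.04 and 9.96 in the double knockout tumors, against 9.08, 9.40 and 10.42 in the Apc knockout tumors, and tumor 2 was again the lowest. Pbx3, Pbx4 and Pbx2 had groups that did not overlap, all lower in double knockout tumors, beside 6.94% of all sets. Their log2 fold changes were -0.48, -0.23 and -0.09. Of 19 Polycomb genes, 1 was lower at the unadjusted threshold, beside 3.82% of all sets. It was Phc1, a subunit of Polycomb repressive complex 1. Phc1 read 9.16, 8.79 and 9.12 in the double knockout tumors, against 9.39, 9.25 and 9.44 in the Apc knockout tumors (log2 fold change -0.34, SE 0.13, limma adjusted p = 0.821, and -0.22 without tumor 2). Its groups did not overlap, nor did those of the Polycomb genes Bmi1 and Pcgf2, both lower in double knockout tumors, beside 6.94% of all sets. The log2 fold changes of Bmi1 and Pcgf2 were -0.35 and -0.28, and -0.23 and -0.27 without tumor 2.

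Tumor 2 was the lowest for 10 of the 19 Polycomb genes and 10 of the 13 trithorax and demethylase genes, beside 28.3% of all sets. Ezh2, the enzyme that writes the repressive Polycomb mark on histone H3, read 11.45, 10.50 and 11.58 in the double knockout tumors, against 11.38, 11.30 and 11.32 in the Apc knockout tumors. Among the 13 trithorax and demethylase genes 0 passed the unadjusted threshold, beside 1.78% of all sets higher and 3.82% lower. Of 19 other genes in and next to the clusters, 1 was higher at that threshold, beside 1.78% of all sets. It was Mtx2, a mitochondrial import protein gene beyond the Hoxd cluster. Mtx2 read 10.75, 10.74 and 10.57 in the double knockout tumors, against 10.39, 10.53 and 10.26 in the Apc knockout tumors (log2 fold change 0.29, SE 0.12, limma adjusted p = 0.821).

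Markers of cell types and states moved beside the Hox values, and their part in these was not tested. The median deviation from the mean of the 6 tumors was 1.02 in tumor 2 for 12 smooth muscle markers, against -0.58 to 0.02 in the other tumors. For 12 colonocyte differentiation markers it was 1.36, against -1.17 to 0.27, and for 12 Wnt target and crypt genes it was -2.0, against 0.16 to 0.67. The 10 epithelial markers had a mean signal of 12.40, 12.62 and 12.34 in the double knockout tumors, against 12.39, 12.39 and 12.13 in the Apc knockout tumors. Epithelial signal was thus present in every tumor. Tumor 2 was the highest for 8 of these 10 markers, with a median deviation of 0.28, against -0.26 to 0.04 in the other tumors. Fibroblast, enteric neuron and glia, endothelial and immune lists had tumor 2 within the range of the other 5. The mean of the smooth muscle markers was 8.78, 10.04 and 8.23 in the double knockout tumors, against 8.72, 8.30 and 8.76 in the Apc knockout tumors. RMA signals have no true 0, and in bulk tissue fewer cells of a type and less RNA per cell cannot be told apart.

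Several marker lists, not fibroblasts alone, differed between Apc knockout tumors 2 and 3, which differed in the Hoxa genes. Median deviations in these tumors were -0.58 and -0.03 for smooth muscle, -0.92 and -0.09 for colonocyte differentiation and -0.28 and 0.22 for immune markers. The epithelial and endothelial medians went the other way. For fibroblast markers the median deviation was -0.47 in Apc knockout tumor 2 and 0.41 in Apc knockout tumor 3. It was 0.27, 0.19 and -0.48 in the double knockout tumors. Double knockout tumor 3, the lowest in fibroblast markers, had a median Hoxa deviation of 0.25. A link of any list with the Hoxa values was not tested. Between genotypes, 0 genes of any marker list passed an adjusted p under 0.05. At the unadjusted threshold Fabp7 was higher (log2 fold change 0.62), and Uchl1 (-0.67), Itgam (-0.58), S100a9 (-1.84), Sp5 (-1.15) and Ephb3 (-0.93) were lower in double knockout tumors, beside 1.78% of all sets higher and 3.82% lower. Without tumor 2 the values of Sp5 and Ephb3 were -0.65 and -0.50.

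**Figure D5:**
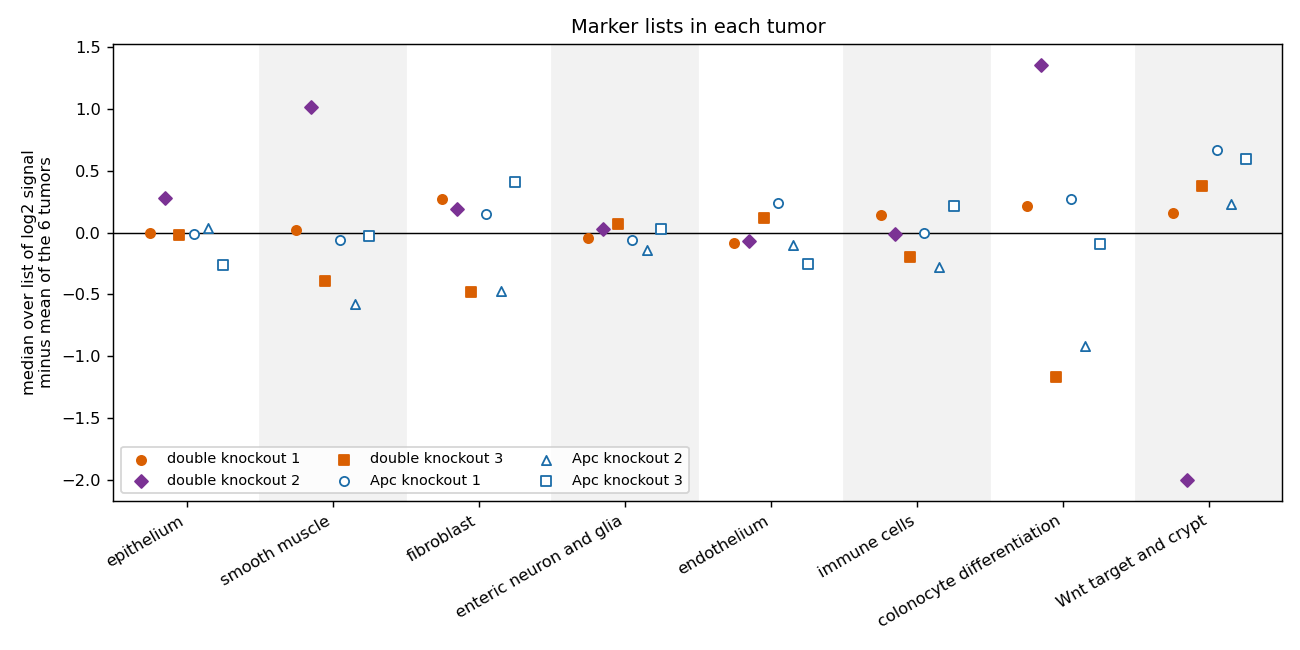
Median over each marker list (x axis) of the log2 signal minus the mean of the 6 tumors (y axis), 1 point per tumor, filled for double knockout and open for Apc knockout tumors. Double knockout tumor 2 is outside the range of the other tumors in several lists. It is at 1.02 for smooth muscle, 1.36 for colonocyte differentiation, -2.0 for Wnt target and crypt genes and 0.28 for epithelium.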

How the data were processed

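The deposited values of 6 arrays are log2 signals that the authors obtained by robust multichip analysis (RMA) in GeneSpring GX from Affymetrix Mouse Gene 1.0 ST scans, and samples with an RNA integrity number above a stated minimum were kept. No source used here names the version of RMA or of the annotation. RMA sets the arrays to a common distribution, so a change shared by most genes would not be seen. Symbols came from the platform's probe annotation (21789 sets with 1 symbol, 1621 with several). Sets with a symbol and a mean signal of at least 5.88, which is the 20th percentile over 35556 sets, went into limma 3.58.1 in R 4.3.3, double knockout against Apc knockout with 3 tumors each, and p-values were Benjamini-Hochberg adjusted over all 19506 sets. The number of arrays limits the precision. The code was tested on simulated data. The Hox genes and all other lists were chosen with earlier results of these data known. Values per tumor are given for Hox genes at an unadjusted p under 0.05, with groups that do not overlap, among the most variable of their cluster by SD or of paralog group 13, for members of other lists at an unadjusted p under 0.05, and for further genes chosen after their values were seen. The labels tie no tumor of one genotype to a tumor of the other, and replicate numbers were not taken as pairs. Other tests, filters, normalizations and each tumor left out were tried as alternatives.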

Additional observations from a re-analysis of the deposited data

How the results depend on the processing

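The count of 0 Hox genes at an adjusted p under 0.05 was the same under every alternative run. At the unadjusted threshold, higher genes numbered 1 with the methods' t-test (Hoxb1) and 0 to 2 with a tumor left out (Hoxd1 and Hoxd12 without double knockout tumor 1, beside 1.24% of all sets, and Hoxa6 without Apc knockout tumor 3, beside 1.35%). Lower genes numbered 1 with the replicate block (Hoxb2, beside 4.76% of all sets) and 0 to 1 with a tumor left out (Hoxb2 without Apc knockout tumor 2, beside 4.37%). No label ties tumor numbers to a shared litter or day. Same-numbered tumors correlated at -0.20, -0.06 and 0.09 in their deviations from the group means, so the replicate block is an arbitrary pairing. Hox genes whose groups did not overlap numbered 2 after a further quantile normalization (Hoxb1 and Hoxc10, beside 12.7% of all sets) and 1 to 8 with a tumor left out. Of the Apc knockout tumors, leaving out tumor 1 gave 2 such genes, tumor 2 gave 7 and tumor 3 gave 8, of 35, beside 20.5%, 24.7% and 21.9% of all sets. Of the double knockout tumors, leaving out tumor 1 gave 5, tumor 2 gave 1 and tumor 3 gave 3, beside 20.2%, 20.2% and 26.2%. The Hoxd median log2 fold change, 0.22, was -0.17 over genes above the 40th percentile of signal, a filter that removes several Hoxd genes and every Hoxc gene (so the Hoxc median has no value there), and ran from -0.05 (without Apc knockout tumor 2) to 0.34 with a tumor left out. It was -0.02 without double knockout tumor 2. The Hoxa median ran from -0.13 to 0.50, the Hoxb median from -0.97 to -0.06, the Hoxc median from -0.34 to -0.01 and the median of all Hox genes from -0.19 to 0.16. Beside Hoxa13, Hoxa10 and Hoxc8, given above, Hoxd11 and Hoxd13 turned to -0.33 and -0.02 without double knockout tumor 2, and Hoxc13 changed sign in 3 settings, from a log2 fold change of 0.03. The causes were not tested. Averaging the probe sets of a gene added nothing, since each Hox gene had 1. Median centring moved the median of all sets from 0.01 to 0.04. With 3 tumors a group, the intervals leave room for differences of more than 1 log2 unit in the genes that vary most.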
